A study of Homo sapiens with 4 samples.

Results

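Replication-dependent histone genes encode the core and linker histones that package newly made DNA. They were taken as the protein-coding genes whose symbol names a clustered H2A, H2B, H3 or H4 gene (H2AC, H2BC, H3C or H4C with a number) or a linker histone gene from H1-1 to H1-6. The pattern matched 83 symbols, of which 13 were non-coding and were left out. The 70 genes that remained, of 69222 gene identifiers in all, were 6 H1, 17 H2A, 19 H2B, 13 H3 and 15 H4 genes. They were measured by poly(A) RNA sequencing in HEK293T cells, a line derived from human embryonic kidney. The group labelled shRPRD1B (2 libraries) had been transduced with a lentivirus carrying a short hairpin RNA against RPRD1B, and the group labelled shCtrl (2 libraries) with a lentivirus carrying a control hairpin. RPRD1B binds the phosphorylated tail of RNA polymerase II. The labels give no hairpin sequence, no time after transduction and no statement on whether the libraries of a group came from separate cultures, so every p-value below measures the spread between these libraries, which may be technical.

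Histone mRNA is made mainly in S phase, when DNA is copied, and nearly all of it lacks a poly(A) tail. Its 3′ end is instead cut just after a short stem-loop, which is bound by the stem-loop binding protein SLBP and cut by a machinery that contains the U7 small nuclear RNP. A library made from poly(A) RNA therefore holds only the part of these transcripts that was polyadenylated, for example after the stem-loop had been read through to a poly(A) signal further on. H2A and H2B form a dimer, H3 and H4 a tetramer, and linker histone H1 binds the DNA between nucleosomes.

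The stem-loop is the element that sets these mRNAs apart from others, so it is shown for H2BC5, H2AC6, H2BC21, H3C10 and H2BC15, the members with most counts whose transcript model contains it, and for H4C8 and H4C15 as examples of the forms found in H4 genes. The capitals mark the 16 bases of the stem-loop and the flanks are in lower case. The sequences are the mRNA strand (GENCODE 29, GRCh38), written with T.
H2BC21, chr1:149886181-149886210, minus strand: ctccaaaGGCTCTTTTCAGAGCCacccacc
H2AC6, chr6:26124662-26124691, plus strand: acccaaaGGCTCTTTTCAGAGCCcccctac
H3C10, chr6:27810509-27810538, plus strand: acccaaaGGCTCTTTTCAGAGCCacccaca
H2BC15, chr6:27839083-27839112, plus strand: ccccaaaGGCTCTTTTCAGAGCCactcagt
H2BC5, chr6:26158580-26158609, plus strand: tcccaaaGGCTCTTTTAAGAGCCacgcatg
H4C8, chr6:26285124-26285153, minus strand: aaccaaaGGCCCTTTTCAGGGCCgcccact
H4C15, chr1:149860762-149860791, minus strand: tcccaaaGGCCCTTTTTAGGGCCgaccact
The models of 30 of the 70 members contained the element downstream of the stop codon. The commonest form, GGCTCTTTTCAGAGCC, was that of 17 members (6 H2A, 8 H2B and 3 H3). The 8 H4 members with an element had another stem, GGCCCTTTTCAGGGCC in 5 and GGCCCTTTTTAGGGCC in 3. The search was for GGNNNTTTTNNNNNCC on the mRNA strand, with at least 5 of the 6 stem bases paired. Anywhere in a model, it matched 42.9% of the members and 1.5% of the other 19614 protein-coding genes of that annotation. Most of the remaining members have models that end at the stop codon, and for these the absence of a match says nothing about the gene. H3C6 and H2BC11 had annotated 3′ UTRs of up to 1908 and 569 bases that held no match to the searched form. The others without a match had 3′ UTRs of at most 57 bases. The models ran on beyond the stem-loop for 1729 bases in H2BC21, 1128 in H2AC6, 769 in H3C10, 377 in H2BC15 and 39 in H2BC5.

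The members lie in clusters. On chromosome 6 there were 55, in a block of 34 genes (25726063 to 26285534 in GRCh38.p14) and a block of 21 genes (27132316 to 27893891). Chromosome 1 held 13, of which 11 lie between positions 149782689 and 149887965 and the pair H2AC25 and H2BC26 lies between 228457364 and 228458558. H4C16 lies on chromosome 12 and H2BC12L on chromosome 21.

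The libraries held 65572391 and 54722140 counts in shRPRD1B and 47732913 and 48494258 counts in shCtrl. Values are given as CPM, which are counts divided by TMM-corrected library size. Over the 8966 genes that averaged 16 CPM or more, the log2 ratio between the libraries of a group had an SD of 0.386 for shRPRD1B and 0.165 for shCtrl. RPRD1B itself stood at 27.2 and 35.5 CPM in shRPRD1B and at 50.4 and 50.1 CPM in shCtrl, the direction the labels give. Its log2 fold change was -0.68 ± 0.16 (SE), with an adjusted p of 0.448 in edgeR's quasi-likelihood test and 0.0467 in DESeq2. The 8 markers of the HEK293 line were all detected and summed to 550 and 412 CPM in shRPRD1B and to 535 and 522 CPM in shCtrl. The 5 fibroblast markers summed to 23.4 and 21.5 CPM in shRPRD1B and to 37.4 and 32.9 CPM in shCtrl, with COL1A2 at 0 in every library. The 5 leukocyte markers summed to between 2.30 and 3.66 CPM in shRPRD1B and to between 4.03 and 4.05 CPM in shCtrl, and the 3 endothelial markers stayed below 0.25 CPM in every library. The part of these differences in the histone values was not tested.

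All 70 histone genes together received 6925 and 8411 counts in shRPRD1B, against 5734 and 5777 counts in shCtrl. Scaled to library size, these were 106 and 153 CPM in shRPRD1B and 121 and 119 CPM in shCtrl. The shRPRD1B libraries lay on both sides of the shCtrl libraries, with means of 130 ± 33.8 and 120 ± 1.65 CPM (SD, n = 2 each) and a log2 ratio of means of 0.11. H2BC12 alone held 53.0% of the summed CPM, and without it the sums were 50.2 and 69.8 CPM in shRPRD1B and 58.6 and 55.8 CPM in shCtrl. In bulk samples such as these, a different share of cells in S phase and a different amount of histone RNA per cell cannot be told apart. Between 50 and 55 members had at least 1 count in a library. Of the 70, 10 had no count in any library, which allows up to 3 counts in each (counting error only), and 22 had fewer than 10 counts over all 4 libraries. The testis genes H2AC1, H2BC1 and H1-6 were among those listed at 0.

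The question put to each gene was whether its count differed between shRPRD1B and shCtrl. Of the 70 members, 37 had enough counts for the test, and 0 of these passed an adjusted p of 0.05 with edgeR (Benjamini-Hochberg over all 20319 genes tested), against a background of 0.0689% of all genes (0.0295% above shCtrl and 0.0394% below it). DESeq2 called 0 members as well, against 1.18% of all genes. At an unadjusted p under 0.05 edgeR had 2 members, H2BC21 on the positive side and H1-5 on the negative side, against 7.49% of all genes (3.55% positive and 3.94% negative). The libraries of the groups did not overlap for 15 of the 37 members, 9 with shRPRD1B above and 6 with shRPRD1B below, against 40.9% of all genes (20.3% above and 20.6% below). Fold changes were positive for 19 members and negative for 18, with a median log2 fold change of 0.05 among members and 0.00 among all genes tested. The values ran from -1.28 (H1-5) to 0.95 (H2BC21).

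**Figure D1:**
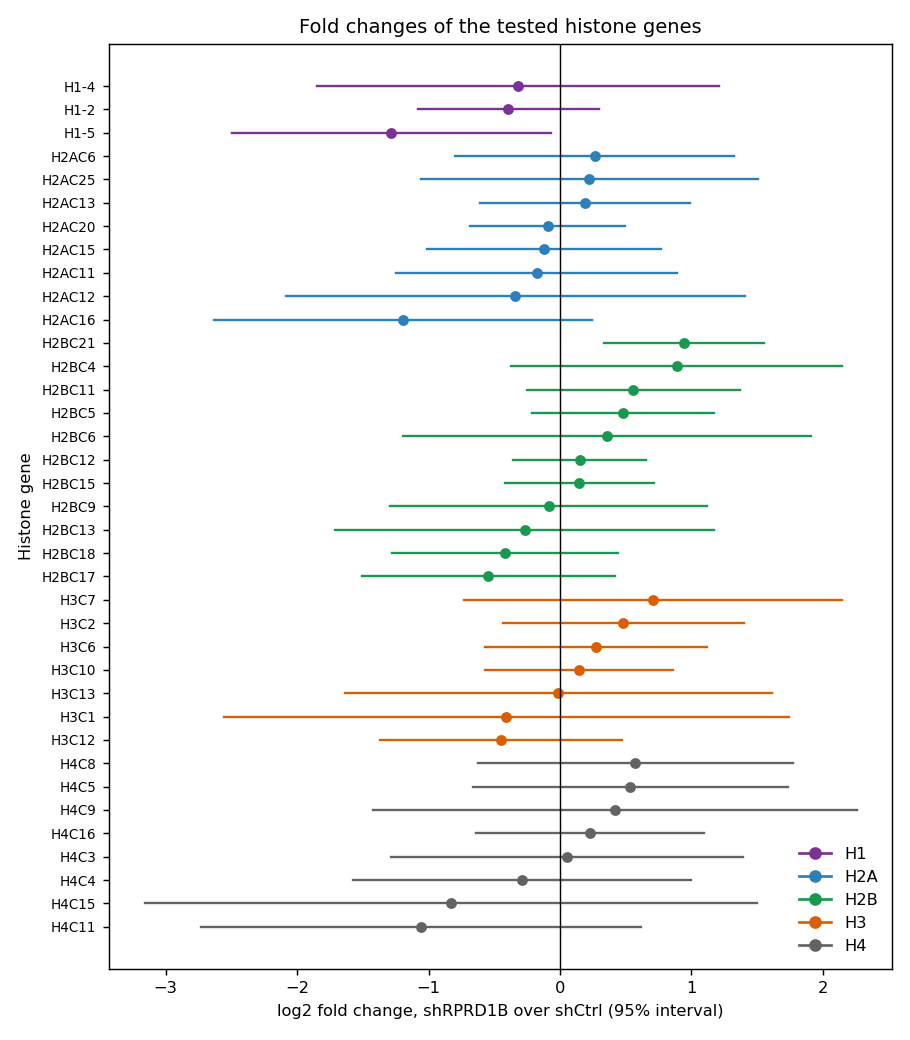
Log2 fold changes, shRPRD1B over shCtrl, of the 37 histone genes with enough counts to be tested, in the order H1, H2A, H2B, H3 and H4 and, within a type, from the highest value down. Points are edgeR estimates and bars their 95% intervals, which leave out 0 for H2BC21 and H1-5 before adjustment and for no other gene.

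H2B was the type with the most counts. It had 11 tested genes, of which 7 had positive fold changes, with a median of 0.15. In 5 of the 11 the lower shRPRD1B library exceeded the higher shCtrl library, against 20.3% of all genes, and in 2 the order was the opposite, against 20.6%. None of the 11 passed the adjusted threshold.

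H2BC12 (ENSG00000197903.8, chromosome 6, 27138293 to 27146858) was assigned 14235 counts over the 4 libraries. It had 55.5 and 83.6 CPM in shRPRD1B and 62.4 and 62.9 CPM in shCtrl. The first shRPRD1B library was the lowest of the 4 and the second the highest, and the log2 fold change of 0.15 ± 0.21 had a 95% interval from -0.36 to 0.66 (edgeR adjusted p = 0.852). The RefSeq span of H2BC12 is 8566 bases long and contains H4C9, whereas its GENCODE 29 model is the coding sequence of 381 bases. Levels per length are therefore uncertain for this gene.

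H2BC21 (ENSG00000184678.11, chromosome 1, 149884459 to 149886682) is known to give polyadenylated mRNA in cells that have left the cell cycle. It received 337 and 243 counts in shRPRD1B and 135 and 104 counts in shCtrl, or 5.14 and 4.43 CPM in shRPRD1B and 2.85 and 2.14 CPM in shCtrl. Both shRPRD1B libraries stood clear of both shCtrl libraries, and the gap between the groups exceeded the gap within either. The log2 fold change was 0.95 ± 0.24 with a 95% interval from 0.34 to 1.55, an edgeR adjusted p of 0.504 and a DESeq2 adjusted p of 0.152. The log2 fold change was 0.83 without shRPRD1B 1 and 1.05 without shRPRD1B 2. In those fits the lone shRPRD1B library is assumed to vary like the shCtrl libraries. Of the 50-base windows of its coding sequence, 52.4% were found in another histone gene, so part of its reads could belong elsewhere.

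H2BC5 and H2BC11 had the second shRPRD1B library well above the rest. H2BC5 had 4.14 and 6.49 CPM in shRPRD1B and 3.97 and 3.62 CPM in shCtrl (log2 fold change 0.48 ± 0.28, edgeR adjusted p = 0.716). H2BC11 had 3.49 and 6.20 CPM in shRPRD1B and 3.44 and 3.10 CPM in shCtrl (0.56 ± 0.33, edgeR adjusted p = 0.717). In both genes the first shRPRD1B library was barely above the shCtrl libraries.

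H2BC4 showed the same order, with 0.794 and 1.77 CPM in shRPRD1B and 0.570 and 0.781 CPM in shCtrl, and a log2 fold change of 0.89 ± 0.51. H2BC4 was named after its values were seen. H2BC15 had 2.67 and 3.08 CPM in shRPRD1B and 2.66 and 2.53 CPM in shCtrl (0.15 ± 0.23), so the groups lay next to each other without overlapping. The smallest H2B value was that of H2BC17, with 0.397 and 0.602 CPM in shRPRD1B and 0.697 and 0.740 CPM in shCtrl (-0.54 ± 0.39). H2BC18 on chromosome 1 was the other tested H2B gene with shRPRD1B below without overlap, at 0.778 and 0.730 CPM in shRPRD1B and 1.20 and 0.822 CPM in shCtrl.

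H2A genes, whose products pair with H2B, were spread around 0. Of 8 tested, 3 had positive fold changes, with a median of -0.11 and none called. H2AC6 had 2.61 and 6.20 CPM in shRPRD1B and 3.86 and 3.39 CPM in shCtrl, so the shRPRD1B libraries took the lowest and the highest place (log2 fold change 0.26 ± 0.43, edgeR adjusted p = 0.879). H2AC20 had 2.17 and 2.17 CPM in shRPRD1B and 2.47 and 2.16 CPM in shCtrl, and its 95% interval ran from -0.68 to 0.50 around -0.09. H2AC11 had 0.885 and 1.08 CPM in shRPRD1B, inside the shCtrl values of 0.697 and 1.5 CPM (-0.18 ± 0.43). H2AC16 had the smallest value of the type, -1.19 ± 0.58, with 0.320 and 0.274 CPM in shRPRD1B and 0.380 and 0.986 CPM in shCtrl. Without shCtrl 2 it was -0.35. It was also the one tested H2A gene of 8 whose groups did not overlap, against 40.9% of all genes (20.6% with shRPRD1B below). H2AC21, with 8 and 14 counts in shRPRD1B and 3 and 0 counts in shCtrl, had too few counts to be tested.

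H3 genes had 7 tested members, 4 of them positive, with a median log2 fold change of 0.15. H3C10 had 2.76 and 4.32 CPM in shRPRD1B and 3.36 and 3.0 CPM in shCtrl (0.15 ± 0.29, edgeR adjusted p = 0.906). H3C6 had 2.59 and 4.74 CPM in shRPRD1B and 2.83 and 3.16 CPM in shCtrl (0.28 ± 0.34, edgeR adjusted p = 0.838). Both had the first shRPRD1B library lowest and the second highest. The extremes of the type were H3C7 at 0.71 ± 0.58, on counts of 22 and 11 in shRPRD1B and 8 and 8 in shCtrl, and H3C12 at -0.45 ± 0.37, with 0.488 and 0.438 CPM in shRPRD1B and 0.697 and 0.575 CPM in shCtrl.

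Nearly all H4 genes encode the same protein, and no H4 gene averaged 1 CPM. Of 8 tested, 5 had positive fold changes, with a median of 0.14. H4C8 had 0.565 and 1.15 CPM in shRPRD1B and 0.633 and 0.493 CPM in shCtrl (0.57 ± 0.48). H4C11 had 0.214 and 0.182 CPM in shRPRD1B and 0.633 and 0.205 CPM in shCtrl (-1.06 ± 0.68), and the first shCtrl library stood apart from the other 3. Without that library the value was -0.04. H4C16, on chromosome 12 and at times counted among the replication-independent genes, had 0.763 and 0.748 CPM in shRPRD1B and 0.549 and 0.740 CPM in shCtrl.

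The linker histones were the type in which no tested gene (0 of 3) had a positive fold change, with a median of -0.39. H1-2 (ENSG00000187837.4, chromosome 6, 26055740 to 26056470) had 9.45 and 16.7 CPM in shRPRD1B and 16.8 and 17.3 CPM in shCtrl. The first shRPRD1B library stood well below the other 3, and the second just under the shCtrl libraries. Its log2 fold change was -0.39 ± 0.28 with a 95% interval from -1.08 to 0.30 (edgeR adjusted p = 0.745). The value was -0.85 without shRPRD1B 2 and -0.03 without shRPRD1B 1, so it rested mainly on the first shRPRD1B library.

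H1-5 (chromosome 6, 27866792 to 27867588) received 10 and 16 counts in shRPRD1B and 24 and 27 counts in shCtrl. That is 0.153 and 0.292 CPM in shRPRD1B and 0.507 and 0.555 CPM in shCtrl, with no overlap. The log2 fold change of -1.28 ± 0.49 had a 95% interval from -2.50 to -0.07 and an edgeR adjusted p of 0.660. H1-4 had 0.961 and 0.620 CPM in shRPRD1B, inside the shCtrl values of 1.58 and 0.431 CPM (-0.32 ± 0.62). The other 3 linker genes, H1-1, H1-3 and the testis gene H1-6, had too few counts to be tested.

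**Figure D2:**
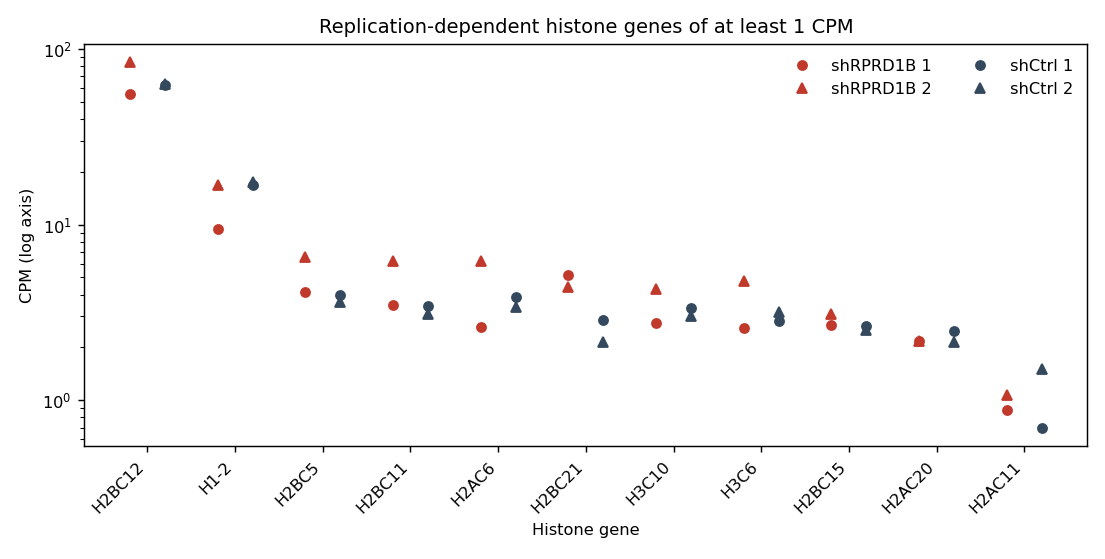
CPM on a log axis of the 11 histone genes that averaged at least 1 CPM, with the shRPRD1B libraries on the left and the shCtrl libraries on the right of each gene. H2BC21 is the gene with a clear gap between the groups, while for H2BC12, H2AC6, H3C10 and H3C6 the shRPRD1B libraries lie on both sides of the shCtrl libraries.

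Summed by type and chromosome, the group that stood highest relative to shCtrl was H2B on chromosome 1. Its 3 genes summed to 5.92 and 5.16 CPM in shRPRD1B and to 4.20 and 3.0 CPM in shCtrl, a log2 ratio of means of 0.62 without overlap. H2BC21 held 79.6% of that sum, and the other members of the group had a log2 ratio of -0.55. The 15 H2B genes of chromosome 6 summed to 67.7 and 103 CPM in shRPRD1B and to 74.6 and 74.7 CPM in shCtrl (0.19), of which H2BC12 held 82.6%. Without H2BC12 the sums were 12.2 and 19.4 CPM in shRPRD1B and 12.2 and 11.8 CPM in shCtrl, a log2 ratio of 0.40. Against the shCtrl mean, shRPRD1B 1 alone gave 0.03 and shRPRD1B 2 alone 0.69.

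The H1 genes, all on chromosome 6, summed to 10.6 and 17.8 CPM in shRPRD1B and to 19.0 and 18.6 CPM in shCtrl, a log2 ratio of -0.40 without overlap. H1-2 held 91.6% of that sum, and the ratio was -0.08 without shRPRD1B 1 and -0.82 without shRPRD1B 2. The sums that overlapped had log2 ratios of 0.07 (H2A on chromosome 1), 0.03 (H2A on chromosome 6), 0.21 (H3 on chromosome 6), 0.07 (H4 on chromosome 6), -0.10 (H3 on chromosome 1), -0.39 (H4 on chromosome 1) and -0.03 (H2B on chromosome 21, where H2BC12L had 7 and 2 counts in shRPRD1B and 5 and 2 in shCtrl). H4C16, the only member on chromosome 12, had 0.23 without overlap. H4 on chromosome 1 summed to 38 and 13 counts in shRPRD1B and to 37 and 14 counts in shCtrl, so in both groups the first library held the larger number.

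Summed by cluster, both blocks of chromosome 6 had a wider spread in shRPRD1B than in shCtrl. The first block of chromosome 6 summed to 24.8 and 41.4 CPM in shRPRD1B and to 33.4 and 32.9 CPM in shCtrl, and the second block to 69.9 and 103 CPM in shRPRD1B and to 78.3 and 79.0 CPM in shCtrl. In each block the first shRPRD1B library was lowest and the second highest. The large cluster of chromosome 1 had another order, with both shRPRD1B libraries above both of shCtrl and the first of them higher. It summed to 9.72 and 8.26 CPM in shRPRD1B and to 8.21 and 5.84 CPM in shCtrl, with H2BC21 at 45.5% of the sum. The log2 ratio of means was 0.36 with H2BC21 and -0.11 without it. In the distal pair, H2BC26 had 0 counts in both shRPRD1B libraries and 7 and 2 counts in shCtrl, too few to be tested. Sums were given no test, since exact permutation of 2 against 2 libraries cannot give a two-sided p under 0.333.

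**Figure D3:**
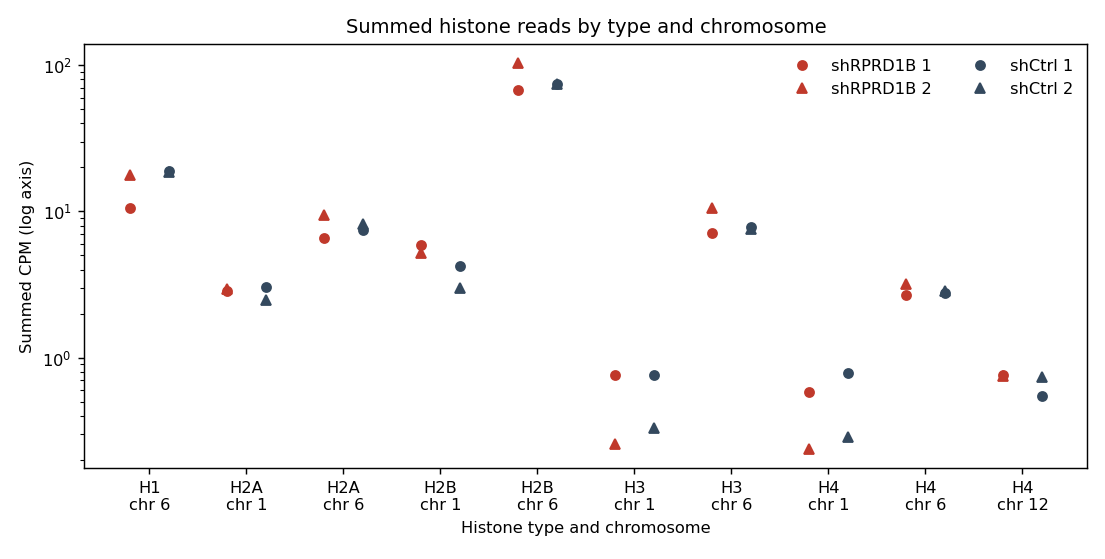
Summed CPM on a log axis for the histone genes of each type and chromosome, with the shRPRD1B libraries on the left and the shCtrl libraries on the right of each group. H2B on chromosome 1 shows both shRPRD1B libraries above shCtrl, H1 shows both below, and on chromosome 6 the H2A, H2B, H3 and H4 sums put the second shRPRD1B library above the first.

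The 2 shRPRD1B libraries differed from each other more than the 2 shCtrl libraries did. Among the 11 members of at least 1 CPM, which held 88.3% of all member CPM, shRPRD1B 2 lay above shRPRD1B 1 in 10. The median absolute log2 ratio within a group was 0.65 for shRPRD1B and 0.16 for shCtrl. The second shRPRD1B library exceeded both shCtrl libraries in 8 of the 11 genes, and the first did so in 4 and lay below both in 5. When shRPRD1B 1 was left out, edgeR called 8 members, H2BC21, H2BC4, H2AC6, H2BC5, H3C6, H2BC11 and H2BC12 above shCtrl and H2AC12 below it. That is 21.1% of the 38 members then tested, against 29.1% of all genes (6235 of 21448). When shRPRD1B 2 was left out it called 2, H2BC21 above and H1-2 below, which is 5.26% of 38 members against 10.4% of all genes (2229 of 21458). H2BC21 was the member called in both, and the share of all genes called in both was not counted.

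**Figure D4:**
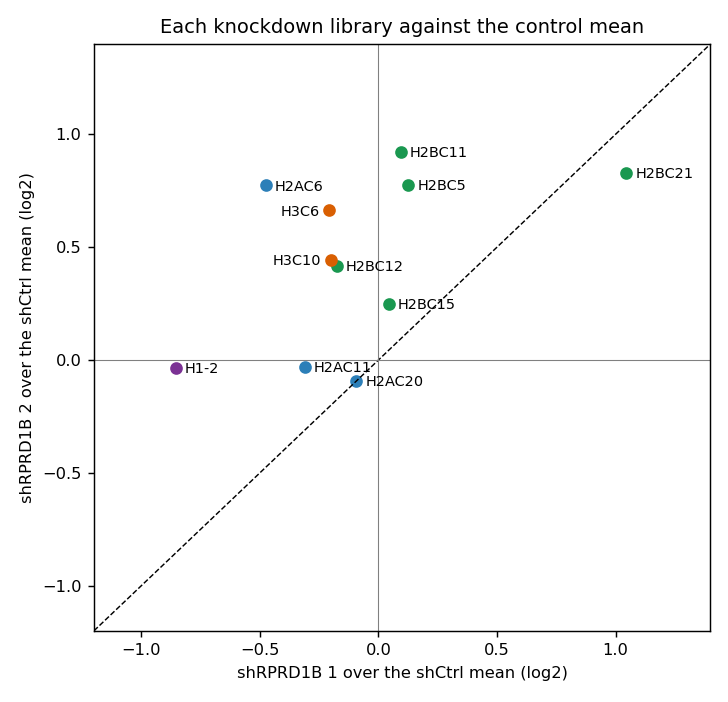
Log2 ratio of each shRPRD1B library to the mean of the shCtrl libraries for the 11 histone genes of at least 1 CPM, with shRPRD1B 1 on the horizontal axis, shRPRD1B 2 on the vertical axis and the dashed line where both are equal (H1 purple, H2A blue, H2B green, H3 orange). H2BC21 lies far to the upper right and below the line, H1-2 far to the left, and H2AC6, H3C6, H3C10 and H2BC12 lie left of 0 in shRPRD1B 1 and above 0 in shRPRD1B 2.

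The annotated 3′ ends of the members fell into classes whose counts overlapped widely and whose medians are given as a description. The identifiers of 4 members are not in GENCODE 29, so the models behind the counts can differ from those used for the classes. H2BC12, for example, was classed from a model of 381 bases, while its RefSeq span is 8566 bases. Class shares and medians carry this uncertainty. In 22 members a GENCODE 29 model carried AATAAA or ATTAAA between 10 and 40 bases before its end and after any stem-loop. Of these, 16 were tested and 8 averaged at least 1 CPM, with a median of 0.534 CPM. In 14 members the model had a 3′ UTR without that signal, and none of them reached 1 CPM (median 0.160 CPM). In 34 members the model ended at the stop codon, with a median of 0.0728 CPM, although H2BC12, H1-2 and H2AC20 were among them, and these 34 genes held between 68.9% and 70.1% of member counts in shRPRD1B and between 72.6% and 74.8% in shCtrl. Models differ in length, and per kb of transcript the medians were 0.302 CPM with the signal, 0.179 CPM for a 3′ UTR without it and 0.144 CPM for models that end at the stop codon.

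Between the groups, the tested members with a signal had a median log2 fold change of 0.27, with 12 of 16 positive. Those with a 3′ UTR but no signal had 0.05, with 4 of 7 positive. Those whose model ends at the stop codon had -0.32, with 3 of 14 positive. Such a model does not show whether the gene carries a signal further on, so this is not a class of genes without one. Over all genes tested the median was 0.00 and 50.5% were positive. Members with a signal held 26.9% of member counts in shRPRD1B 1 (95% Wilson interval 25.9 to 28.0) and 27.5% in shRPRD1B 2 (26.5 to 28.4), against 23.4% in shCtrl 1 (22.3 to 24.5) and 21.8% in shCtrl 2 (20.8 to 22.9). Leaving out H2BC12, which held more counts than all other members together, they held 56.7% of the other counts in shRPRD1B 1 (55.0 to 58.4) and 60.4% in shRPRD1B 2 (58.8 to 61.9). They held 48.3% in shCtrl 1 (46.4 to 50.1) and 46.4% in shCtrl 2 (44.5 to 48.3). These intervals cover counting error only. H1-2 supplied 619 and 915 of the counts outside the signal class in shRPRD1B and 798 and 844 in shCtrl. H2BC21 supplied 337 and 243 of the counts inside the class in shRPRD1B and 135 and 104 in shCtrl. The share therefore moves with these genes as well, and it is not given without them.

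**Figure D5:**
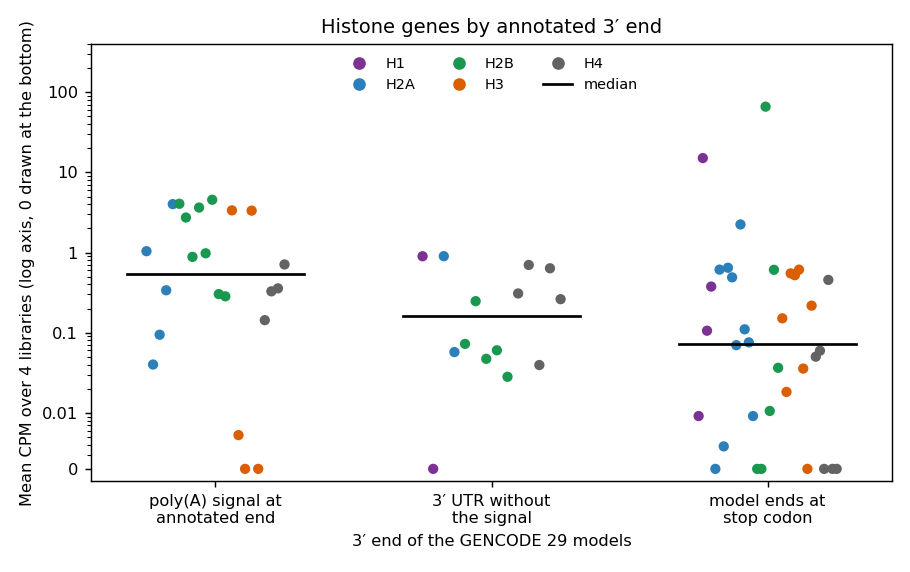
Mean CPM over the 4 libraries on a log axis for all 70 histone genes, by the 3′ end of their GENCODE 29 models, with each histone type in its own colour and bars at the medians (0.534, 0.160 and 0.0728 CPM). Genes without counts are drawn at the bottom, and the highest point, in the class whose models end at the stop codon, is H2BC12.

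H2A and H2B genes often lie head to head and share a promoter region. Among the 64 members with a RefSeq promoter (GRCh38.p14, 250 bases before to 50 after the start), 11 such pairs lay 194 to 248 bases apart. Both genes were tested in 5 pairs. The H2A and H2B log2 fold changes were -0.09 and 0.95 for H2AC20 and H2BC21, 0.26 and 0.89 for H2AC6 and H2BC4, -0.18 and 0.56 for H2AC11 and H2BC11, -0.12 and 0.15 for H2AC15 and H2BC15, and 0.19 and -0.27 for H2AC13 and H2BC13. In 4 of the 5 pairs the H2B gene had the larger value, but none of the 10 genes was called.

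The octamer ATTTGCAT, the site of the POU factor OCT1 (POU2F1) known from H2B promoters, is shown in capitals for H2B genes with fold changes on both sides of 0.
H2BC21, chr1:149886703-149886732, minus strand: cctaATTTGCATaaggtggttataaaagaa
H2BC12, chr6:27146879-27146908, minus strand: ccttATTTGCATgagaggtcctatataaaa
H2BC11, chr6:27132817-27132846, minus strand: ccttATTTGCATaagcgattctatataaaa
H2BC4, chr6:26124024-26124053, minus strand: cctcATTTGCATagctctgcccacggatga
H2BC18, chr1:149812394-149812423, minus strand: cttcATTTGCATacgggctctataagtagc
On either strand the octamer was found in 14 of 18 H2B promoters (77.8%), 11 of 16 H2A promoters (68.8%), 1 of 11 H3 promoters, 0 of 6 H1 promoters and 0 of 13 H4 promoters, and in 1.8% of all 27305 promoters. The H2A and H2B windows of a head-to-head pair cover much of the same DNA. A single octamer can thus be counted for both genes, and the H2A and H2B shares are not independent. It began 46 bases before the start in H2BC21 and H2BC12, 47 in H2BC11, 49 in H2BC18 and 123 in H2BC4. H2BC17, which is not shown, had it in the reverse orientation 149 bases before the start, and its log2 fold change was -0.54. The windows of H2BC5 and H2BC15 held no exact match. H2BC21 and H2BC18, which lie in the same cluster and share the octamer at a like distance, had log2 fold changes of 0.95 and -0.42. CCAAT, on either strand, was in every member promoter of H1, H2A, H2B and H3, in 23.1% of H4 promoters and in 35.7% of all promoters.

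Near-identical copies limit what single counts mean. Of the 50-base windows of the coding sequence, 33 members shared none with another histone gene, 16 shared more than 50%, and 9 shared all of them. H2BC12 shared 74.1% and H2BC21 52.4%. The median was 3.78% in tested members and 0% in untested members. How reads that match several genes were counted is not given in the sources used here. The RefSeq spans of 4 pairs of members overlap, H4C15 with H2AC19 and H3C15, H3C4 with H2AC7, and H2BC12 with H4C9.

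The factors that make, use and package histone mRNA were read from 6 lists, and edgeR and DESeq2 each called 0 genes in every list. The lists share some genes, SLBP among them, and held 104 distinct tested genes, so their counts are not independent. The 3′ end processing list had 23 tested genes, 13 of them positive, with a median log2 fold change of 0.02. LSM11, a subunit of the U7 small nuclear RNP, had 70.3 and 65.7 CPM in shRPRD1B and 52.2 and 56.2 CPM in shCtrl (0.33 ± 0.12, edgeR adjusted p = 0.649), and was the only gene of that list at an unadjusted p under 0.05. MBLAC1, a nuclease linked to histone pre-mRNA, had -0.47 ± 0.20, the cap-binding subunit NCBP1 0.25 ± 0.13 and the Sm protein SNRPE -0.25 ± 0.17.

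The list for histone gene transcription had 12 tested genes, 11 of them positive, with a median of 0.16. CDK2, the kinase that with cyclin E phosphorylates NPAT, had 106 and 95.7 CPM in shRPRD1B and 82.2 and 80.2 CPM in shCtrl (0.32 ± 0.12, edgeR adjusted p = 0.656). NPAT, the coactivator of histone gene transcription, had 35.7 and 44.6 CPM in shRPRD1B and 29 and 33.7 CPM in shCtrl (0.35 ± 0.16, edgeR adjusted p = 0.685). Both had shRPRD1B above shCtrl without overlap. GON4L stood at 0.29 ± 0.17 and cyclin E2 (CCNE2) at 0.35 ± 0.21.

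Of the 14 tested genes of histone mRNA translation and decay, 11 were positive (median 0.13), with PABPN1, a nuclear poly(A)-binding protein, at 0.28 ± 0.12, the helicase UPF1 at 0.28 ± 0.14 and the exosome nuclease DIS3 at 0.24 ± 0.15. CTIF, a cap-complex partner of SLBP, had 0.198 and 0.146 CPM in shRPRD1B and 0.0633 and 1.97 CPM in shCtrl (-2.54 ± 1.32), with the second shCtrl library apart from the other 3. Of 17 tested histone chaperones 13 were positive (median 0.10), with the FACT subunit SUPT16H at 0.27 ± 0.14, the CAF-1 subunit RBBP4 at 0.27 ± 0.15, ASF1A at 0.24 ± 0.13 and NAP1L4 at -0.58 ± 0.35.

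S-phase genes, the set that is on when these histones are made, had 24 of 32 positive with a median of 0.09. In 16 of the 32 the groups did not overlap with shRPRD1B above, against 20.3% of all genes, and in 0 with shRPRD1B below. GINS1, of the replicative helicase, had 98.2 and 106 CPM in shRPRD1B and 84.4 and 87.3 CPM in shCtrl (0.25 ± 0.11). The chromatin ATPase ATAD2 stood at 0.29 ± 0.14, the ribonucleotide reductase subunit RRM1 at 0.24 ± 0.12 and cyclin A2 (CCNA2) at 0.18 ± 0.10. The edgeR adjusted p of these 4 genes lay between 0.682 and 0.716.

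The replication-independent histones, whose mRNAs are mostly polyadenylated, had 13 tested genes, 6 of them positive, with a median of -0.02. This list shares H4C16 with the members. H2AJ had 24.6 and 15.1 CPM in shRPRD1B and 29.5 and 26.3 CPM in shCtrl (-0.49 ± 0.25). Its second shRPRD1B library was the lowest of the 4. The centromeric variant CENPA stood at 0.15 ± 0.12 and MACROH2A1 at 0.11 ± 0.10.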

How the data were processed

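Poly(A) RNA libraries were made from HEK293T cells, 2 with a hairpin against RPRD1B and 2 with a control hairpin. The authors deposited whole-number read counts per gene, with 1 file per library. Per the submitters' processing notes, Trim Galore, HISAT2 and featureCounts were used with hg38. Those sources do not state versions, annotation release, strand setting or how multi-mapping reads were counted. The total counts ran from 47732913 to 65572391 per library. A low count of a gene does not show a low transcript level: POLR2A, which every cell uses, averaged 1.16 CPM in shRPRD1B and 1.07 CPM in shCtrl.

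Of 69222 identifiers, 62686 matched a symbol in RefSeq tables (GRCh38.p14). Genes were tested in R 4.3.3 with edgeR 4.0.16 (robust glmQLFit and glmQLFTest on group alone), after filterByExpr at a minimum count of 10 and TMM scaling. Benjamini-Hochberg adjustment ran over the 20319 genes left, at a threshold of 0.05. SEs and 95% intervals come from that fit. Sums per histone type and chromosome were sums of counts, scaled in the same way and not tested. DESeq2 1.42.0 and limma 3.58.1 (voom) were alternatives, with other scalings, filters, a replicate block and each library left out. The older quasi-likelihood fit of edgeR was added after seeing the data. The fit was tested on simulated data with the same dispersion in both groups. That setting does not cover the wider spread of the shRPRD1B libraries. Transcript models were GENCODE 29, with 66 members matched by identifier and 4 by older symbol.

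The members and lists were chosen with earlier results of these data known. Genes were named by a rule: RPRD1B, members of at least 1 CPM or at an unadjusted p under 0.05, the largest and smallest fold change of each histone type, and up to 4 genes per list with the smallest p, not all of which are reported here. H2BC4, H2BC18, H2BC26, H2AC12, H2AC21, H4C15, H4C16, H2BC12L, H1-1, H1-3, H1-6, H2AC1, H2BC1, the genes of head-to-head pairs and overlapping spans, COL1A2 and POLR2A are exceptions, and their values had been seen.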

Additional observations from a re-analysis of the deposited data

How the results depend on the processing

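The number of histone genes called was 0 with edgeR and stayed 0 with DESeq2, limma voom, other scalings, either filter, the replicate block and the older edgeR fit, where between 2 and 60 members could be tested. It ranged from 0 to 8 when 1 library was left out, with 8 without shRPRD1B 1 and 2 without shRPRD1B 2. Listed genes called were 0, and between 0 and 48 when 1 library was left out. Histone genes at an unadjusted edgeR p under 0.05 were 2 of 37, against 7.49% of all genes. There was 1 under DESeq2 and 0 with at least 5 CPM in 2 libraries, and the number moved when 1 library was left out. Over all genes tested, 14 were called, 240 by DESeq2, 0 by limma voom, 40 with no low-count filter, 0 with at least 5 CPM in 2 libraries, 7 with the older edgeR fit, and 54 to 6235 with 1 library left out.

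The replicate numbers are shared by the groups, but with 2 pairs they name the libraries only. Deviations of same-numbered libraries correlated at 0.22 over 8966 genes. With the replicate number as a block, 141 genes were called over the whole table and 0 histone genes, and the median log2 fold change of the 37 members was 0.00.

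Without 1 library or another, the log2 fold change ranged from -0.47 to 0.78 for H2AC6, -0.21 to 0.66 for H3C6, -0.17 to 0.42 for H2BC12 and -0.20 to 0.45 for H3C10, negative without shRPRD1B 2. It ranged from -0.19 to 0.0083 for H2AC20 and -0.98 to 0.89 for H1-4, positive without shCtrl 1, and from -0.62 to 0.49 for H2AC11, positive without shCtrl 2. Summed log2 ratios moved by more than the replicate spread without the member with most counts, to 0.73 for H2A on chromosome 1, -0.55 for H2B on chromosome 1 and 0.82 for H4 on chromosome 1, and per kb of transcript to -0.21 for H4 on chromosome 6. The cause of these shifts was not tested. Over all alternatives, 224 values of single genes kept their direction and their side of the threshold, 11 passed it where the reported value did not and 7 changed direction. Of the summed ratios under settings other than leaving out a library, 155 moved by less than the replicate spread and 8 by more. Leaving out 1 library changed the sign of 17 of 24 summed ratios, with all members ranging from -0.18 to 0.36 and H1 from -0.82 to -0.08. Depth limits the 22 members with fewer than 10 counts in all. With no low-count filter 60 members were tested, of which 0 were called and 1 positive and 2 negative were at an unadjusted p under 0.05.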
